A study of Mus musculus with 6 samples.

Results

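The ubiquitin-specific proteases were followed in fully grown mouse oocytes with and without the RNA-binding protein LSM14B. Members were taken as every gene row whose symbol begins with Usp and a digit, a rule that uses no measured value. This gave 56 of the 24255 gene rows, and 55 without Usp6nl, which shares the letters but encodes a Rab GTPase-activating protein. RNA-Seq libraries of 20 oocytes each came from the ovaries of wild-type (WT) mice and of mice with the Lsm14b-KO genotype, 3 libraries per genotype. The oocytes were fully grown and at the germinal vesicle (GV) stage, before the meiotic divisions, and were collected 46 h after priming with 5 IU of PMSG per mouse in both genotypes. The KO mice were on C57BL/6J and homozygous for a knockout-first, reporter-tagged insertion allele, present in all their cells. The labels do not say whether the libraries came from separate mice, so p-values measure the spread between these libraries only.

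Ubiquitin is a small protein that is attached to other proteins, often as a chain, and many chains mark their carrier for the proteasome. Deubiquitinases remove it again, and the ubiquitin-specific proteases are their largest family in mammals. They are cysteine proteases: a short stretch of the catalytic domain, the cysteine box, carries the active cysteine. Growing oocytes store mRNAs and translate many of them only later, and a GV oocyte makes little new RNA, so its mRNA levels largely record what was stored and kept.

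FPKM scales the fragments of a gene to its transcript length and to the size of the library, so levels of different genes can be set side by side. Lsm14b itself was at 2.77, 3.98 and 1.72 FPKM in WT replicates 1 to 3. In the KO libraries it was listed at 0, 0 and 0.10 FPKM, so it passed the filter of 1 FPKM in at least 1 library through WT only. On the log2(FPKM + 1) scale Lsm14b was lower by a fold change of -1.85 (SE 0.25), with an adjusted p of 0.0038 by limma, and an exact permutation test gave p = 0.10, the smallest that 3 against 3 libraries allow. All 12 oocyte markers passed the filter, with summed levels of 13922 to 15012 FPKM in WT and 12706 to 16033 FPKM in KO libraries, mostly Ooep and Oosp1. Of the 12, Dazl fell 2.94-fold (adjusted p = 0.0131), while Padi6 (2.71-fold, adjusted p = 0.0304) and Ddx4 (4.86-fold, adjusted p = 0.0050) rose. Ddx4 passed the filter through its KO level only. The 12 cumulus and granulosa markers summed to 9.73 to 13.5 FPKM in WT and 6.60 to 11.0 FPKM in KO libraries. Of these, Cyp19a1 made most of the sum and fell (11.5, 8.26 and 10.5 FPKM in WT, 5.47, 3.00 and 5.76 FPKM in KO; adjusted p = 0.0426). Fshr averaged 0.852 FPKM in WT and 1.94 FPKM in KO (adjusted p = 0.0923), and Hsd3b1 was at 0 in WT and at 0.464 to 0.826 FPKM in KO libraries. Amh, Foxl2, Inhba and Ptx3 were at 0 throughout, and the 6 red blood cell genes in the table were at 0. KO replicate 1 stood apart from the other KO libraries. On log2(FPKM + 1), its correlation with the WT libraries across genes was 0.952 to 0.954, against 0.867 to 0.890 for KO replicate 2 and 0.917 to 0.929 for KO replicate 3. The FPKM of all genes summed to 1141320 to 1244180 in WT libraries, 1029730 in KO replicate 1, and 564671 and 676656 in KO replicates 2 and 3. The value that 1 fragment adds, read from the lowest values in each library, gave KO replicates 1, 2 and 3 about 1.33, 1.95 and 2.16 times the depth of WT replicate 1, with the WT libraries at 1 to 1.15 times. The part of depth, of these sums and of the markers in the differences below was not tested. Less mRNA per oocyte and a changed mix of the same amount cannot be told apart in FPKM.

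The coding sequence around the catalytic cysteine shows what the members share and where they differ. A pattern for the cysteine box, widened after seeing which members lacked it, was found in the coding sequence of 51 of the 56 members and of 21 of the 22 that could be tested. Usp39 was the tested member without a match; its protein is a spliceosome component known to lack the active cysteine. The others without a match were Usp34, Usp40, Usp18 and Usp6nl. For Usp34, Usp40 and Usp18 this does not show that the active cysteine is absent, since only the pattern was searched. The sequences below come from GENCODE vM21 on GRCm38 and are shown for Usp46, the member with the highest level, for the members past the test that hold the box, and for close relatives they are set against later. Each is 30 coding bases, 5′ to 3′ on the coding strand, with the codon of the catalytic cysteine in capitals.

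Usp46: tttggaaacacaTGCtactgtaactccgtg

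Usp12: tttgggaataccTGCtactgcaactcagtt

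Usp4: ctggggaacactTGCttcatgaactctgct

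Usp15: ttgggaaatacgTGTttcatgaactcagcc

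Usp11: ctgggcaacacaTGCttcatgaactcggcc

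Usp1: cttggcaacactTGTtatctgaatagtatt

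Usp7: cagggagcaacgTGTtacatgaatagcttg

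Usp53: gggcagaacagcTGCtttctaaacagtgct

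Usp54: gggcaaaacagcTGCttcctcaacagtgcc

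The cysteine is codon 44 in Usp46 (chr5:74032488-74032517, minus strand), codon 311 in Usp4 (chr9:108366843-108366872, plus strand) and codon 90 in Usp1 (chr4:98928319-98928348, plus strand). It is codon 224 in Usp7 (chr16:8707674-8707703, minus strand) and codon 41 in Usp53 (chr3:122968595-122968624, minus strand). Of the relatives, Usp12 carries it at codon 48 (chr5:146763385-146763414, minus strand), Usp15 at codon 298 (chr10:123146800-123146829, minus strand), Usp11 at codon 266 (chrX:20713361-20713390, plus strand) and Usp54 at codon 42 (chr14:20607088-20607117, minus strand).

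Most members were weakly expressed in these oocytes, and a pair of genes, Usp46 and Usp4, made up much of the family's total in WT. Of the 56 members, 22 reached 1 FPKM in at least 1 library and were tested, among 6398 genes tested in all. Of these 22, 16 reached 1 FPKM in both genotypes, Usp53 and Usp39 did so in WT libraries only, and Usp37, Usp42, Usp8 and Usp47 in KO libraries only. The median level of the tested members, taken over genes, was 1.36 FPKM in WT and 2.13 FPKM in KO, against 2.85 and 2.84 FPKM for all tested genes, and 20 of the 22 stayed below 10 FPKM in every library.

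Usp46 encodes an enzyme that is activated by the WD-repeat proteins WDR48 and WDR20, and it was the highest member in both genotypes. It was at 33.5, 24.1 and 35.2 FPKM in WT and 28.5, 80.4 and 71.7 FPKM in KO libraries. KO replicates 2 and 3 lay above all WT libraries, while KO replicate 1 lay among them. The exons of Usp46 overlap exons of Usp46os1 and Usp46os2 on the other strand, so its values are uncertain. The means were 30.9 ± 5.94 FPKM in WT and 60.2 ± 27.8 FPKM in KO (SD, n = 3 each). The difference of 0.83 on the log2(FPKM + 1) scale (95% interval -0.16 to 1.81) did not pass the test (adjusted p = 0.181, limma), and leaving out KO replicate 1 raised it to 1.29 (adjusted p = 0.0048).

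**Figure D1:**
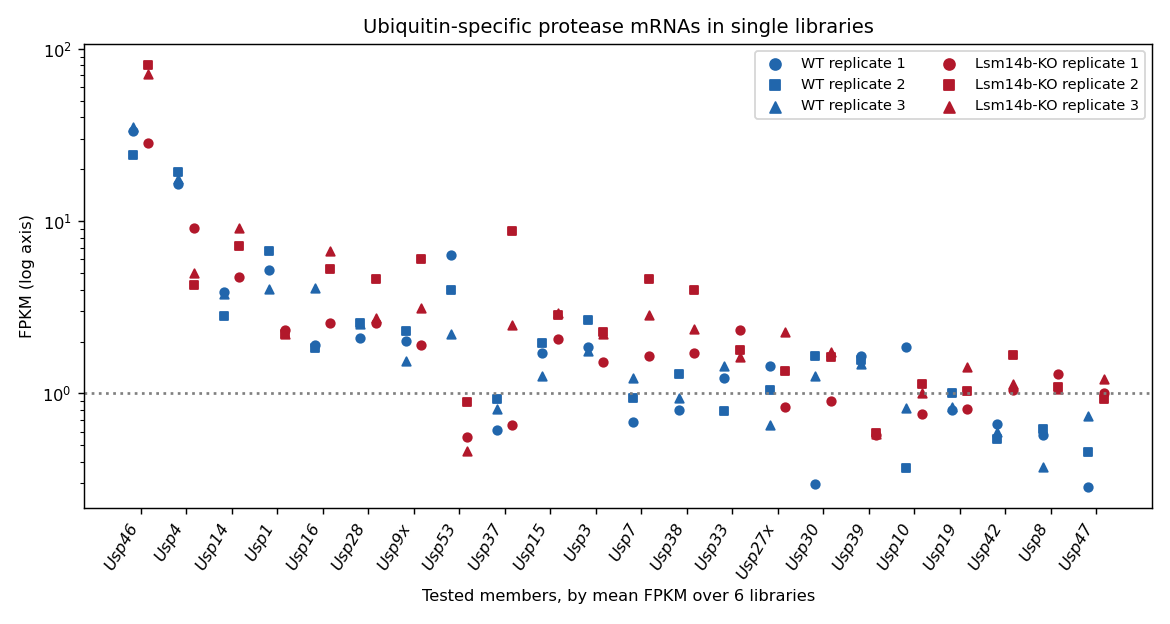
Levels of the 22 tested members in each library, in FPKM on a log axis, ordered by the mean over 6 libraries; circles, squares and triangles are replicates 1, 2 and 3, blue for WT and red for Lsm14b-KO, and the dotted line marks 1 FPKM. Usp46 and Usp4 lie highest in WT, and Usp53 moves from 2.21 to 6.36 FPKM in WT to 0.463 to 0.894 FPKM in KO libraries.

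All member rows together summed to 89.1, 83.4 and 89.0 FPKM in WT libraries and 75.1, 152 and 132 FPKM in KO libraries. Usp46 made 28.9 to 39.5% of the sum in WT, 37.9% in KO replicate 1, and 52.8 and 54.3% in KO replicates 2 and 3. Usp4 made 18.4 to 23.1% of it in WT, 12.2% in KO replicate 1, and 2.78 and 3.77% in KO replicates 2 and 3. Without Usp46 the sum was 53.8 to 59.3 FPKM in WT and 46.7, 71.9 and 60.4 FPKM in KO libraries, so the groups overlapped.

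Between the genotypes, 5 of the 22 tested members changed at an adjusted p under 0.05: Usp53, Usp4, Usp1 and Usp39 fell and Usp7 rose in KO oocytes. These 5 are 22.7% of the tested members, close to the background of 21.6% of all tested genes. Of all tested genes 6.38% rose and 15.2% fell. At an unadjusted p under 0.05 by limma there were 9 of the 22 members and 2518 of the 6398 tested genes. Of the 17 members that did not pass, 16 had a log2 fold change above 0, 4 of which passed the filter through KO only. Above 0 were 17 of all 22 members and 2997 of the 6398 tested genes. The median over all 22 members was 0.45 (range -1.59 to 1.11), against -0.075 over all tested genes. The KO and WT libraries did not overlap for 13 members (59.1%; 9 with KO higher and 4 with KO lower), where 45.0% of all tested genes did not overlap. Since 6 members passed the filter through 1 genotype only, these counts describe the tested members and not the family.

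Usp53, whose product lies at cell junctions, had the largest fall among the tested members. It was at 6.36, 3.99 and 2.21 FPKM in WT and 0.555, 0.894 and 0.463 FPKM in KO libraries. Every KO library lay below every WT library, although the WT libraries themselves spread over 2.21 to 6.36 FPKM. The WT mean was 4.19 ± 2.08 FPKM and the KO mean 0.637 ± 0.227 FPKM, 6.57-fold lower. On the log2(FPKM + 1) scale the fall was -1.59 (SE 0.31), and limma gave an adjusted p of 0.0130. Usp53 passed the filter through its WT level. In rank order among all members it was number 4 in WT and number 23 in KO.

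Usp4, an enzyme known for stabilising a TGF-beta receptor and for acting in Wnt signalling, was the second most abundant member in WT. Its levels were 16.4, 19.3 and 17.5 FPKM in WT and 9.15, 4.24 and 4.99 FPKM in KO libraries. The WT libraries lay close together and all KO libraries were lower, with KO replicate 1 nearest to WT. The means were 17.8 ± 1.46 and 6.12 ± 2.65 FPKM, 2.90-fold lower in KO (log2 fold change -1.45, SE 0.30; adjusted p = 0.0153). About 218 to 293 fragments lay behind each WT value and about 109 to 162 behind each KO value.

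Usp1 removes ubiquitin from the DNA repair proteins FANCD2 and PCNA and works together with WDR48. It was at 5.17, 6.73 and 4.06 FPKM in WT and 2.35, 2.22 and 2.205 FPKM in KO libraries. The KO libraries were almost equal and all lay below WT. The means were 5.32 ± 1.34 and 2.26 ± 0.076 FPKM, 2.36-fold lower in KO (log2 fold change -0.93, SE 0.22; adjusted p = 0.0243). A processed pseudogene, Gm5841, holds a near-identical copy of Usp1 sequence, so reads could have been split between them.

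Usp39, the spliceosome component, was at 1.66, 1.56 and 1.48 FPKM in WT and 0.574, 0.589 and 0.585 FPKM in KO libraries. Both groups were tight and did not overlap. The mean fell from 1.57 ± 0.088 to 0.583 ± 0.0077 FPKM, 2.69-fold lower (log2 fold change -0.70, SE 0.18; adjusted p = 0.0293), and the gene passed the filter through its WT level. Only about 12.4 to 14.5 fragments lay behind each WT value and 6.21 to 10.3 behind each KO value, so counting error alone is larger than the spread between these libraries.

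Usp7 acts on the ubiquitin ligase MDM2 and on chromatin proteins, and was the member that rose. It was at 0.679, 0.937 and 1.23 FPKM in WT and 1.65, 4.63 and 2.84 FPKM in KO libraries. All KO libraries lay above WT, with a wider spread in KO. The means were 0.948 ± 0.274 and 3.04 ± 1.503 FPKM, 3.21-fold higher in KO (log2 fold change 0.99, SE 0.29; adjusted p = 0.0467). About 9.83 to 18.4 fragments lay behind each WT value and 31.8 to 131 behind each KO value, and a processed pseudogene, AC110375.1, holds a near-identical copy.

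**Figure D2:**
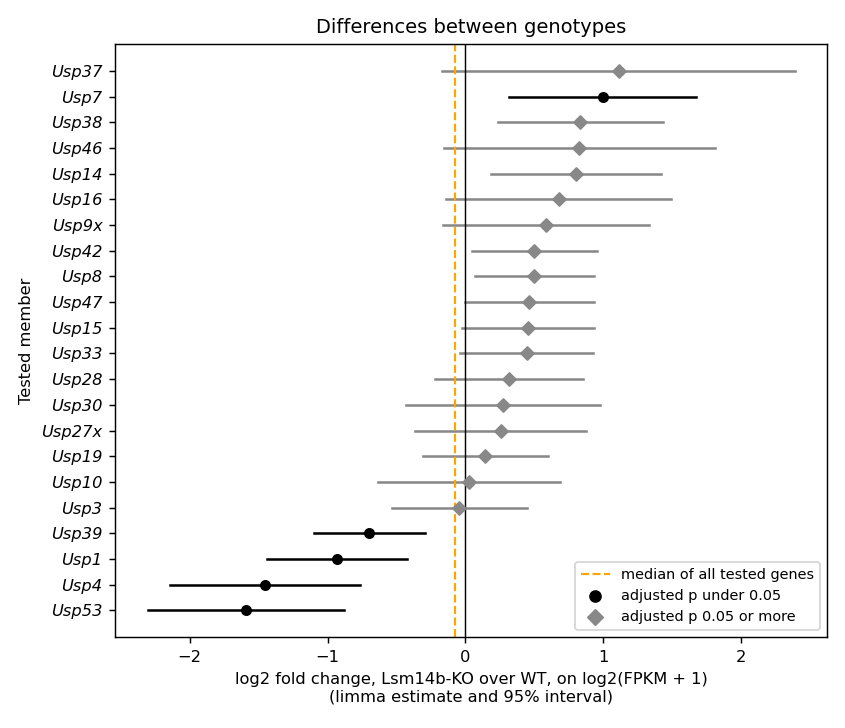
Log2 fold change of Lsm14b-KO over WT for the 22 tested members on the log2(FPKM + 1) scale, with limma's 95% interval as a bar; black circles have an adjusted p under 0.05, grey diamonds do not, and the dashed line is the median of all tested genes (-0.075). Usp39, Usp1, Usp4 and Usp53 lie below 0 with their whole interval, and 17 members lie above 0.

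Which of these calls passed changed when each of the 6 libraries was left out in turn. Leaving out any library except KO replicate 1 also cut the calls over all genes, from 1383 to between 315 and 865. A lost call in these fits cannot be told apart from that general loss. Over the 6 fits the log2 fold change was -1.741 to -1.264 for Usp4, -0.721 to -0.671 for Usp39 and -1.084 to -0.778 for Usp1. It was -1.898 to -1.2996 for Usp53 and 0.721 to 1.266 for Usp7. Usp53 was past the threshold in 4 of 6 such fits, with adjusted p = 0.0629 without WT replicate 2 and 0.0710 without KO replicate 3. Usp4 was not past it without WT replicate 1 (0.0693), WT replicate 2 (0.0747), WT replicate 3 (0.0665) or KO replicate 3 (0.0829). Usp1 was not past it without WT replicate 1 (0.0938), WT replicate 2 (0.1005), KO replicate 2 (0.0546) or KO replicate 3 (0.0990). Usp39 was past it only without KO replicate 1 (0.020) and at 0.0593 to 0.106 without any of the other libraries. Usp7 likewise was past it only without KO replicate 1 (0.00685) and at 0.103 to 0.160 without any other. With no filter on low values, which raised the genes tested to 14325, Usp53 and Usp4 were still past it but Usp7 (0.109), Usp1 (0.0586) and Usp39 (0.0571) were not. The 5 genes kept their direction in all 15 alternatives run.

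Without KO replicate 1, the library nearest to WT, 11 members were past the threshold: the 5 above and Usp46, Usp37, Usp14, Usp38, Usp16 and Usp9x, each higher in KO. Their log2 fold changes were then 1.29 for Usp46, 1.72 for Usp37, 1.02 for Usp14, 1.03 for Usp38, 1.00 for Usp16 and 0.88 for Usp9x. Over all genes the number of calls moved in the same way, from 1383 to 2898.

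Because the FPKM sums differ, the scale on which libraries are compared moves the members. When every library was scaled to 1 sum (TPM), the median log2 fold change of all tested genes moved up by 0.48, from -0.075 to 0.40, and that of the tested members from 0.45 to 0.85. Usp53 (-1.19, adjusted p = 0.0471) and Usp4 (-0.84, adjusted p = 0.0437) were lower and past the threshold on that scale too. Usp1 (-0.40, adjusted p = 0.297) and Usp39 (-0.36, adjusted p = 0.252) were no longer past it, and Usp7 (1.48, adjusted p = 0.0493) was joined by Usp14, Usp33 and Usp8 among the members that were higher. Over all genes the calls went from 408 higher and 975 lower to 833 higher and 486 lower. After a correction for transcript length and GC content, the same 5 members were past the threshold. Their log2 fold changes were then -1.69 for Usp53, -1.61 for Usp4, -0.99 for Usp1, -0.66 for Usp39 and 0.85 for Usp7. Usp7 was only just past it (adjusted p = 0.049996, limma).

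**Figure D3:**
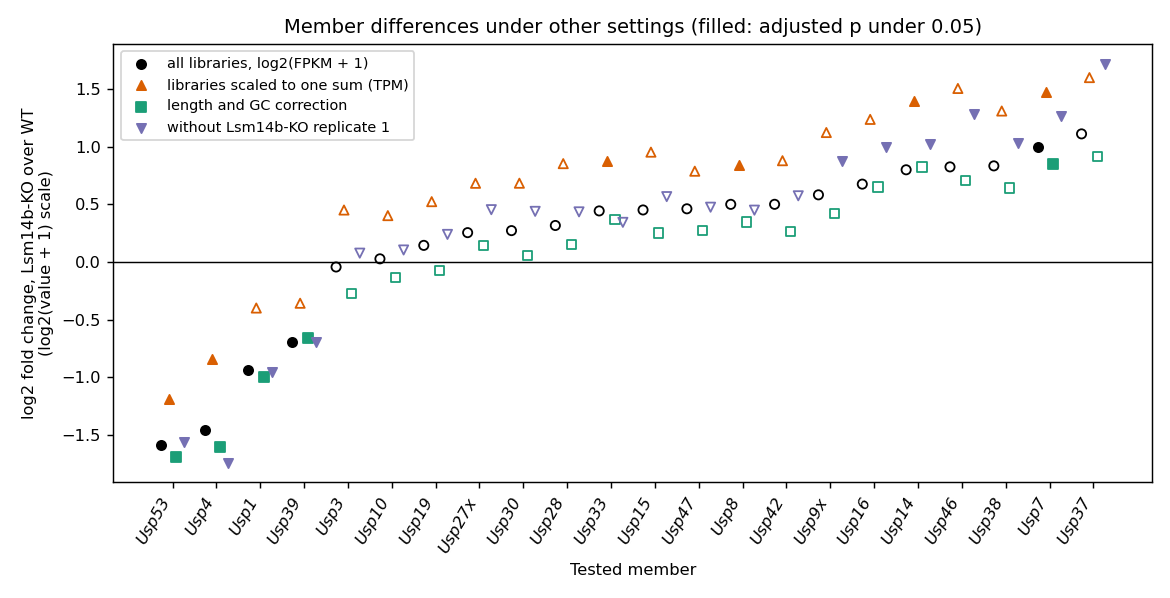
Log2 fold change of each tested member under 4 settings: all libraries on log2(FPKM + 1) (black circles), TPM scaling (orange triangles), length and GC correction (green squares) and without Lsm14b-KO replicate 1 (purple triangles); filled symbols have an adjusted p under 0.05. Usp53 and Usp4 are filled and below 0 in all 4 settings, and Usp7 is filled and above 0 in all 4. Of all 15 alternatives, Usp53 was past the threshold in 13, Usp4 in 11 and Usp7 in 6.

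By known role, the members that work on histones, transcription and the nucleolus had 10 rows, of which 5 were tested and 1, Usp7, rose. Usp16, a histone H2A deubiquitinase, was at 1.90, 1.85 and 4.08 FPKM in WT and 2.56, 5.25 and 6.69 FPKM in KO libraries. WT replicate 3 lay above KO replicate 1, so the groups overlapped, and the difference of 0.68 (SE 0.35) had an adjusted p of 0.186. The Usp16 row shares its deposited locus and overlapping exons with Cct8 on the other strand, so its values are uncertain too. Usp42, which acts on histone H2B, did not overlap (WT 0.603 ± 0.063 FPKM, KO 1.28 ± 0.33 FPKM; adjusted p = 0.0990), while Usp27x (0.25, adjusted p = 0.487) and Usp3 (-0.044, adjusted p = 0.886) overlapped.

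The group for DNA repair and WDR48-dependent enzymes had 6 rows and 3 tested members, of which Usp1 fell. Usp46 is given above. Usp47, known for controlling a base excision repair polymerase, was at 0.494 ± 0.229 FPKM in WT and 1.05 ± 0.14 FPKM in KO (adjusted p = 0.131), without overlap.

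Of the 5 rows for Wnt and TGF-beta signalling, 3 were tested and Usp4 fell. Usp15, the closest relative of Usp4 and an enzyme that acts on SMAD proteins, was at 1.73, 1.95 and 1.27 FPKM in WT and 2.07, 2.87 and 2.93 FPKM in KO libraries. Its groups did not overlap and KO was on the higher side, opposite to Usp4, but the difference of 0.45 (95% interval -0.026 to 0.93) did not pass the test (adjusted p = 0.143). Usp9x, a large X-linked enzyme that acts on SMAD4, was at 2.02, 2.29 and 1.55 FPKM in WT and 1.92, 6.05 and 3.15 FPKM in KO libraries. KO replicate 1 lay among the WT libraries and the other KO libraries above them (0.58, SE 0.32; adjusted p = 0.209). Usp9x has 2 pseudogenes with near-identical sequence.

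Among 4 rows for cell cycle and spliceosome, 3 were tested and Usp39 fell. Usp37, which stabilises cyclin A, had the largest log2 fold change above 0 and the widest spread: 0.615, 0.922 and 0.810 FPKM in WT and 0.655, 8.77 and 2.51 FPKM in KO libraries. KO replicate 1 lay within the WT range and KO replicate 2 was far above every other library, so the 1.11 (95% interval -0.17 to 2.39) did not pass (adjusted p = 0.170). The Usp37 row shares its deposited locus with Plcd4, Rqcd1, Vil1 and Zfp142, and its exons overlap exons on the other strand, so its values are uncertain. Usp28, a stabiliser of MYC, was at 2.09, 2.56 and 2.52 FPKM in WT and 2.58, 4.59 and 2.75 FPKM in KO libraries. The groups did not overlap, although KO replicate 1 lay only just above WT replicate 2, and the difference was 0.32 (SE 0.23; adjusted p = 0.326).

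Usp14, the reversible proteasome subunit that trims chains, was the tested member of 3 for the proteasome and free chains. It was at 3.90, 2.80 and 3.79 FPKM in WT and 4.71, 7.16 and 9.09 FPKM in KO libraries. All KO libraries lay above WT, and the log2 fold change of 0.80 (95% interval 0.19 to 1.42) had an adjusted p of 0.0649. The Usp14 row shares its deposited locus and overlapping exons with Thoc1 on the other strand. Its relatives Usp5, which takes apart free chains, and Usp13 stayed at or below 0.133 FPKM in every library.

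Of 8 rows for endosomes, the endoplasmic reticulum and mitochondria, 5 were tested and none passed limma's adjusted threshold (log2 fold changes 0.027 to 0.50), with 1, Usp8, at an unadjusted p under 0.05. Usp8, which acts on endosomal sorting, and Usp33, which acts on surface receptors, did not overlap between the genotypes. Usp8 was at 0.523 ± 0.131 FPKM in WT and 1.15 ± 0.13 FPKM in KO (adjusted p = 0.0891), and Usp33 at 1.15 ± 0.33 and 1.92 ± 0.37 FPKM (adjusted p = 0.150). The mitochondrial Usp30 (0.27), Usp19 of the endoplasmic reticulum (0.14) and Usp10 (0.027) overlapped. Of the 3 rows for interferon and NF-kB signalling, Usp38 alone was tested, at 1.01 ± 0.26 FPKM in WT and 2.68 ± 1.16 FPKM in KO (0.83, SE 0.26; adjusted p = 0.0546). Of the 7 less studied members, Usp53 alone was tested. None of the 9 germline-biased and Y-linked rows was tested.

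Several sets of close relatives in the family were at very different levels. Usp46 and Usp12 share 77.2% of their aligned coding bases and the same activators, but Usp12 was at 0, 0.110 and 0 FPKM in WT and 0.047, 0.193 and 0 FPKM in KO libraries. Usp4 shares 62.2% with Usp15 and 58.9% with Usp11, and Usp11 was at 0.157 to 0.412 FPKM in WT and 0.236 to 0.361 FPKM in KO libraries. Usp53 shares 57.5% with Usp54, which was at 0.362, 0.248 and 0.118 FPKM in WT and 0.091, 0.496 and 0.428 FPKM in KO libraries. In WT, all Usp53 libraries lay above all Usp54 libraries, and in KO the ranges of the pair overlapped.

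The same uneven pairing was seen in Usp28 and Usp25 (59.5%), Usp33 and Usp20 (63.5%), Usp38 and Usp35 (58.7%) and Usp42 and Usp36 (58.4%), where the first gene was tested and the other was not. The highest level of Usp25, Usp20 and Usp35 in any library was 0.059, 0.125 and 0.102 FPKM. Other pairs had no tested gene and were low in both. Means over all libraries were 0.292 and 0.114 FPKM for Usp31 and Usp43 (59.0%). They were 0.195 and 0.184 FPKM for Usp22 and Usp51 (66.0%), and 0.042 and 0.019 FPKM for Usp5 and Usp13 (65.7%). Usp16 and Usp45 (54.2%) were both detected in all libraries, with Usp45 at 0.253 to 0.643 FPKM. Usp9x was present in all libraries and its Y-linked copy Usp9y, with 83.6% identity, was at 0 in these female germ cells.

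**Figure D4:**
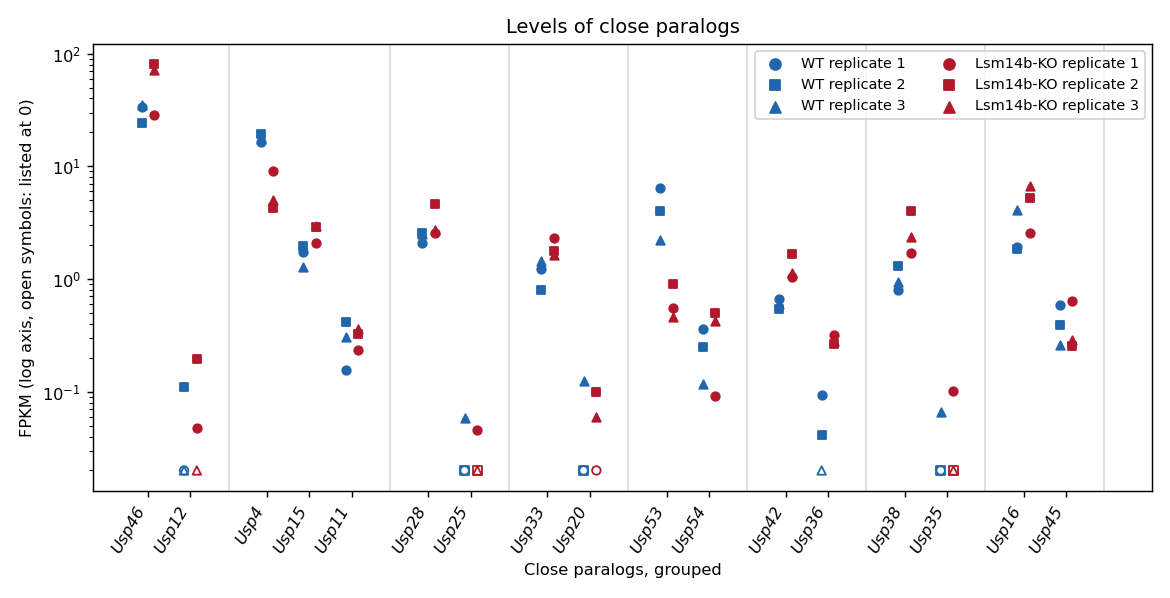
Levels in each library, in FPKM on a log axis, of some of the close relatives among the members. Groups of relatives are set apart by grey lines. Blue is WT, red is Lsm14b-KO, the shapes are replicates 1 to 3, and open symbols at the bottom are libraries listed at 0. In each group 1 gene has the highest mean in both genotypes, such as Usp46 against Usp12, which did not exceed 0.193 FPKM.

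The tested members have long transcripts. Their median length was 4580.5 nt, against 2250.5 nt over all tested genes, and 21 of the 22 were longer than that median, with Usp39 at 2244 nt the exception. In these libraries the differences between genotypes moved with length over all genes. The median log2 fold change was -0.58 in the shortest quartile of tested genes (28 higher, 357 lower) and 0.29 in the longest quartile, over 3657 nt (154 higher, 156 lower). Of the members, 18 were in the longest quartile, 3 in the next and 1 in the one below that. Usp53, at 6185 nt, and Usp4, at 3662 nt, fell within this quartile. The part of length in the members' values was not tested beyond the corrected fit given above, in which their median was 0.26 and that of all tested genes 0.10. Without the correction the medians were 0.45 and -0.075.

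**Figure D5:**
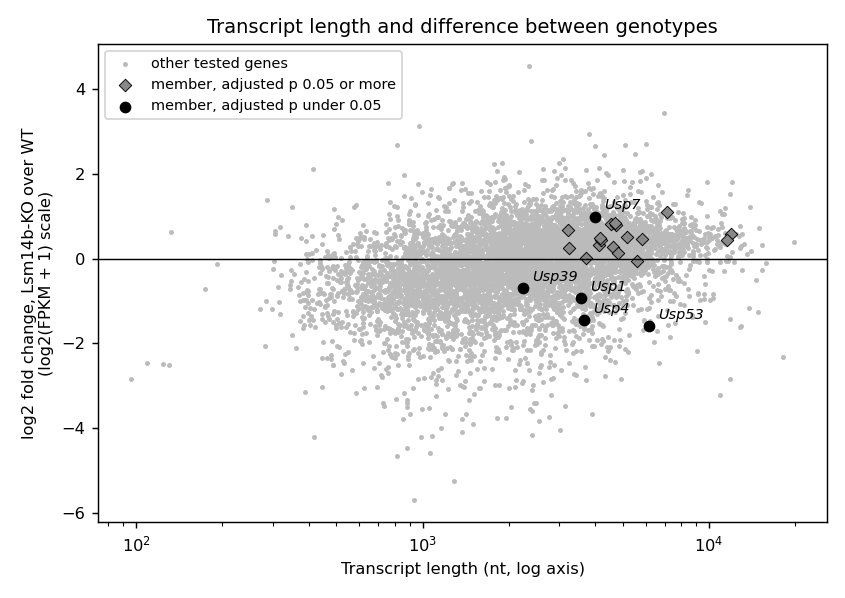
Transcript length in nt on a log axis against the log2 fold change of Lsm14b-KO over WT on log2(FPKM + 1), for tested genes (grey points) and tested members (black circles with an adjusted p under 0.05, grey diamonds otherwise). Short genes lie mostly below 0, and Usp53, Usp4, Usp1 and Usp39 lie below 0 at 2244 to 6185 nt.

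In oocytes, the cytoplasmic polyadenylation element (CPE) near the end of the 3′ UTR is known to control the poly(A) tail and translation of stored mRNAs. The last 100 nt of the annotated 3′ UTR were searched on the sense strand for TTTTAT and TTTTAAT, the latter of which can overlap the polyadenylation signal AATAAA. A match was found in 4 of the 22 tested members (18.2%) and in 1127 of 5473 tested genes with such a window (20.6%). The 4 are shown because Usp7, the member that rose, is among them; each stretch is 30 nt of the sense strand with the element in capitals.

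Usp7: gcctggaggctTTTTAATaaccgtctctct

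Usp28: caactatgcaggTTTTATaaatgtgcaata

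Usp37: gttttgttttgTTTTAATgtgtgagagaca

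Usp47: attcttacccttTTTTATtttctcttaaga

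These lie at chr16:8690224-8690253 (minus strand), chr9:49042461-49042490 (plus strand), chr1:74435531-74435560 (minus strand) and chr7:112111559-112111588 (plus strand) of GRCm38. No match was found in this window of Usp53, Usp4, Usp1 or Usp39, and Usp28, Usp37 and Usp47 did not pass the test. A polyadenylation signal (AATAAA or ATTAAA) was in the window of 16 of the 22 members (72.7%) and of 82.9% of the tested genes. Of the members named here, Usp7, Usp47, Usp4 and Usp39 had none there. The Usp47 stretch lies past the end of its deposited locus (112111386). The Usp7 gene and its deposited locus run on past the Usp7 stretch, to 8689595 and 8688720. The Usp53 gene, on the minus strand, runs to 122931493, past the edge of its deposited locus at 122933599. For Usp7, Usp47, Usp53, Usp4 and Usp39 the window therefore need not be the end of the mRNA that was measured. A match or its absence there is uncertain for these genes. The median 3′ UTR length was 1067.5 nt for the tested members and 923 nt for all tested genes.

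The other 34 members did not reach 1 FPKM in any library, and the highest value among them was 0.958 FPKM, of Usp2 in KO replicate 1. This is just under the level of the tested Usp47, which peaked at 1.21 FPKM. Of these, 4 (Usp18, Usp17lb, Usp17le and Usp9y) were listed at 0 in all libraries and 11 were above 0 in all 6. Of the 30 above 0 in some library, 10 (33.3%) had KO values all above WT values and 1 all below, so that 11 (36.7%) did not overlap. Over all 7927 genes of this kind, under 1 FPKM throughout and above 0 somewhere, KO was all above WT in 10.9%, and 14.9% did not overlap. That background takes in genes above 0 in as few as 1 library and was not matched to the members for detection or transcript length. The KO libraries were also the deeper ones, and their part in these shares was not tested. Usp22, the deubiquitinase of the SAGA transcription complex, was at 0, 0.053 and 0 FPKM in WT and 0.317, 0.525 and 0.277 FPKM in KO libraries. Its relative Usp51 went the other way, at 0.255, 0.223 and 0.494 FPKM in WT and 0, 0.131 and 0 FPKM in KO libraries, on about 2 to 4 fragments in each library above 0. Usp32 was at 0.263, 0.198 and 0.183 FPKM in WT and 0.397, 0.927 and 0.747 FPKM in KO libraries, and Usp36, a nucleolar enzyme, at 0.094, 0.041 and 0 against 0.319, 0.265 and 0.282 FPKM. Usp21 and Usp40 were listed at 0 in every WT library and above 0 in every KO library, at 0.098, 0.471 and 0.241 FPKM and at 0.118, 0.108 and 0.072 FPKM. These genes were picked after their values were seen, and none of them was tested in the fit used here. In a fit without the filter on low values, which tested 52 members, Usp22 was past the threshold (log2 fold change 0.43, SE 0.090; adjusted p = 0.0459, limma). Its WT values rest on about 1 fragment in all.

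Of the proteins that bind or activate these enzymes, 17 of the listed genes were in the table, 8 were tested and 4 changed, where 21.6% of all tested genes did. With 8 genes this is given as a count only. Wdr20, whose product activates the USP12 and USP46 enzymes, fell from 18.9, 17.1 and 20.7 FPKM in WT to 5.26, 6.59 and 3.92 FPKM in KO libraries. That is 3.59-fold lower, with no overlap (log2 fold change -1.69, SE 0.25; adjusted p = 0.0051). Its call held in 14 of 15 alternatives, the exception being TPM scaling (adjusted p = 0.0528). Wdr48, the shared activator of USP1, USP12 and USP46, stayed under 1 FPKM in all libraries, at 0.343 to 0.557 FPKM in WT and 0.260 to 0.761 FPKM in KO.

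Eny2, a small subunit of the SAGA deubiquitinating module that works with USP22, fell from 401, 382 and 304 FPKM in WT to 243, 50.6 and 82.2 FPKM in KO libraries (log2 fold change -1.83, SE 0.54; adjusted p = 0.0475). KO replicate 1 was nearest to WT. With 1 library left out, Eny2 passed only in the fit without KO replicate 1, with adjusted p of 0.0979 to 0.160 in the others. It was also past the threshold neither with TPM scaling (0.0529), quantile normalization (0.0812) or a pseudocount of 0.01 (0.0569), nor with no filter (0.109). G3bp2 and G3bp1, stress granule proteins that bind USP10, both rose. G3bp2 went from 17.8, 19.8 and 17.6 FPKM to 41.1, 61.7 and 57.6 FPKM (log2 fold change 1.47, SE 0.27; adjusted p = 0.0112). It was at an adjusted p of 0.0566 to 0.0674 without any WT replicate or KO replicate 3. G3bp1 went from 0.416, 0.091 and 0.101 FPKM to 1.406, 0.747 and 1.10 FPKM (log2 fold change 0.79, SE 0.22; adjusted p = 0.0402), and it passed the filter through KO. It was at 0.0674 to 0.132 without any WT replicate or KO replicate 3, and at 0.167 with the length and GC correction.

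Of 3 further genes with a USP-type domain but another symbol, Uspl1, which encodes a SUMO protease, was tested and rose. It was at 0.089, 0 and 0.086 FPKM in WT and 1.21, 1.33 and 1.15 FPKM in KO libraries, with all KO libraries far above WT (log2 fold change 1.07, SE 0.18; adjusted p = 0.0081). It passed the filter through KO and was past the threshold in all 15 alternatives, with adjusted p of 0.0033 to 0.0465.

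Of the 6 genes for ubiquitin precursors and E1 enzymes, all were tested and none changed by limma at an adjusted p under 0.05; 2 had an unadjusted p under 0.05, Rps27a (-1.27, adjusted p = 0.0583) and Uba6 (0.67, adjusted p = 0.0546). Ubb, a polyubiquitin precursor, was by far the highest of these genes, at 18584 to 20931 FPKM in WT and 12745 to 19725 FPKM in KO libraries, with overlap.

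The list for other deubiquitinase families gave 41 rows, of which 26 were tested and 3 changed (11.5%, against 21.6% of all tested genes). The median log2 fold change was 0.053. Genes were listed by family, so not every one need encode an active deubiquitinase. Otud6b, of the OTU family, rose from 0.673, 0.958 and 1.31 FPKM to 1.71, 2.46 and 3.14 FPKM (log2 fold change 0.79, SE 0.23; adjusted p = 0.0470). Psmd7, a proteasome lid subunit of the JAMM family, fell from 20.4, 23.8 and 18.6 FPKM to 10.5, 5.63 and 9.51 FPKM (log2 fold change -1.23, SE 0.29; adjusted p = 0.0232). Fam188b, of the MINDY family, fell from 21.2, 29.96 and 23.9 FPKM to 11.1, 4.09 and 9.36 FPKM (log2 fold change -1.58, SE 0.36; adjusted p = 0.0223). No group overlapped. Without any WT replicate or KO replicate 3 these genes were not past the threshold (adjusted p 0.0720 to 0.102 for Psmd7, 0.0753 to 0.0987 for Fam188b and 0.0860 to 0.167 for Otud6b), and Otud6b was also at 0.104 without KO replicate 2.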

How the data were processed

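RNA from GV-stage FGOs was amplified by a Smart-seq2 procedure, with 20 oocytes per library. The labels name 2 library kits and do not state strand. The authors aligned the reads with TopHat2 (2.0.13) and calculated FPKM with Cufflinks (2.2.1); the annotation is not given in the sources used here. The deposited table has 1 FPKM column per library. Its columns of fold changes, p-values and q-values from the authors' Cuffdiff comparison were not used. A spreadsheet had turned 27 symbols into dates.

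Values were tested as log2(FPKM + 1) with limma 3.58.1 in R 4.3.3 (intensity trend, genotype only, two-sided) where a gene reached 1 FPKM in 1 library or more. The p-values were adjusted by Benjamini-Hochberg over 6398 genes. A fold change on this scale understates that of low genes. The call threshold was an adjusted p of 0.05. The fit was also run on simulated data, with the same spread for a gene in both genotypes. That setting held no library like KO replicate 1 and no differences in depth or scale, so it cannot show how the calls fare under these. Transcript length, GC content, loci and coding sequences came from GENCODE vM21 (GRCm38), with lengths for 6318 of the tested genes (98.7%). Approximate fragments are FPKM times length over the commonest lowest step in a library, and depend on the transcript chosen. Besides the members named for it above, Usp15, Usp38, Usp33, Usp30 and Usp10 have exons that overlap those of other genes. Near-identical copies were sought with blastn 2.17.0 (95% identity over at least 200 nt), and coding sequences were aligned with mafft 7.526.

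The symbol rule uses no values, but the family, its roles and the lists were picked with earlier results of these data known. Every library's value was given for members with an adjusted p under 0.05 and for the 10 with the highest mean. Genes of the other lists were named where they passed the threshold; the markers at 0, Fshr, Hsd3b1, Wdr48, Ubb, Rps27a, Uba6 and the untested members with values were named after their values were seen. Groups came from the sample titles. A total of 15 alternatives were run.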

Additional observations from a re-analysis of the deposited data

How the results depend on the processing

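For the count of ubiquitin-specific proteases higher in KO oocytes, 1 with log2(FPKM + 1), the value was 0 with a pseudocount of 0.01, with quantile normalization and with no intensity trend. It was 2 with at least 1 FPKM in at least 3 libraries, 4 with TPM scaling, and 0 to 7 when 1 library was left out. For the count lower in KO, 4 as reported, it was 2 with no filter and 2 with TPM scaling, and 0 to 4 when 1 library was left out. With no filter the count higher was also 1, but it was Usp22 in place of Usp7, and 2 of the 5 reported calls remained. The no-filter fit called 720 genes where the reported fit called 1383. Genes of the other deubiquitinase families higher in KO, 1 as reported, numbered 0 with a pseudocount of 0.01 or no intensity trend. They numbered 2 with no filter or quantile normalization, 3 with TPM scaling or length and GC correction, and 0 to 3 with 1 library left out. Those lower, 2 as reported, numbered 0 with no filter or TPM scaling, 1 with quantile normalization, and 0 to 5 with 1 library left out. Over all genes, leaving out 1 library gave 315 (without KO replicate 3) to 2898 (without KO replicate 1) calls. Lsm14b was lower and past the threshold in all 15 alternatives (log2 fold change -6.90 to -1.63). Some small differences turned direction. Usp3 was at 0.45 with TPM scaling and at -0.12 to 0.084 with 1 library left out (above 0 without WT replicate 2, and 0.077 without KO replicate 1). Usp10 was at -0.13 and Usp19 at -0.075 with length and GC correction. With 1 library left out, Usp10 was at -0.22 to 0.31 (below 0 without WT replicate 2, WT replicate 3 or KO replicate 2) and Usp30 at -0.033 (without WT replicate 1) to 0.48. The cause was not tested. Quantile normalization moved the median of all genes by 0.14 and the length and GC correction by 0.18.

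Whether the replicate numbers pair the libraries is not known, since the labels name no shared litter or day. Deviations of same-numbered libraries correlated at 0.19, -0.13 and 0.018, and those of differently numbered libraries at -0.28 to 0.31. With 3 libraries per genotype, centred within the genotype, these correlations cannot decide it. A replicate block gave 2 members higher (Usp7 and Usp38) and 3 lower (without Usp39), with 1244 calls over all genes. With the replicate block, 1 gene of the other deubiquitinase families was higher and 2 were lower.

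Depth limits the low members: 11 of the 22 tested had under 30 fragments in all 3 WT libraries, and the lowest value rests on about 4.97 fragments.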
